A study of Homo sapiens with 6 samples.

Results

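The promyelocytic leukaemia (PML) nuclear body genes examined here are PML, SP100, SP110, SP140L, DAXX, ATRX and ISG20. These 7 genes were taken by symbol from a count table of 37887 listed genes, and all 7 were found in it and passed the filter on low counts. The measurements are RNA-seq of BT-549, a cell line derived from a human triple-negative breast cancer and mesenchymal in character, in 3 control and 3 IRF1shRNA cultures. Control cultures are titled control shRNA and received DMSO, which the series text gives as 0.1%. The IRF1shRNA cultures are titled shIRF1, carry a short hairpin RNA against the transcription factor IRF1 and received doxycycline, given there as 500 ng/ml. That text speaks of 1 line with an inducible IRF1 hairpin for both groups, so whether the controls carry a scrambled or an uninduced hairpin is unsettled. Doxycycline went only to the silenced cultures, hence its effects and those of the hairpin cannot be told apart. In the sequenced cultures 1 IRF1 hairpin was used, and the time under doxycycline is not given in the sources used here.

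PML nuclear bodies are spherical protein assemblies in the nucleus that the PML protein builds as a scaffold. PML and its partners are modified by SUMO, a small ubiquitin-like protein, and bind it through short motifs, which holds the bodies together. The bodies act in antiviral defence, transcriptional repression and histone deposition, and interferons, through the transcription factors that bind their target promoters, are known inducers of PML, of the SP100 family and of ISG20.

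Total counts ranged from 55143808 to 160436234 over the 6 libraries, with IRF1shRNA replicate 2 the lowest. Levels are given as CPM, meaning reads of a gene in every 1000000 reads counted, after scaling by the trimmed mean of M values (TMM), and changes as log2 fold changes of IRF1shRNA against control with their standard error (SE). A gene is called when its p from the quasi-likelihood test of edgeR, after Benjamini-Hochberg adjustment over 18851 genes, is under 0.05. The labels speak of triplicate cultures without saying that they were grown separately, so p-values measure the spread between these samples, which may be technical. IRF1 itself was at 45.3, 48.1 and 51.5 CPM in the controls and at 13.8, 14.9 and 14.6 CPM in the IRF1shRNA cultures, and fell by 1.74 on the log2 scale (SE 0.06, adjusted p 4.53e-13 by edgeR). ESR1 stayed at or under 0.144 CPM and PGR at or under 0.325 CPM, whereas ERBB2 was at 35.0 to 54.8 CPM. ERBB2 was lower after silencing, with a log2 fold change of −0.48 (adjusted p 1.47e-06 by edgeR). The mesenchymal marker VIM also fell, from 888 to 945 CPM in controls to 592 to 658 CPM in the IRF1shRNA cultures (−0.56, adjusted p 3.10e-08 by edgeR), while CDH2, at 223 to 255 CPM over all libraries, was not called, and the part of these markers in the members' changes was not tested. The leukocyte marker PTPRC was at 0.298 to 0.757 CPM.

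Sequences before the RefSeq starts are shown for SP110, SP140L, SP100 and ISG20, the 4 of 7 members with an entry in the RefSeq promoter table (GRCh38.p14). PML, DAXX and ATRX have none there. Each line shows 30 bases around matches to AANNGAAA, or to a pair of GAAA with 2 bases between them, the letters that interferon regulatory factors recognise, read on the strand with those letters. Capitals mark the matched bases. The coordinates are chr2:230225719-230225748, minus strand, for the first SP110 start, chr2:230220014-230220043, plus strand, for the second SP110 start, chr2:230327098-230327127, minus strand, for SP140L, chr2:230416126-230416155, minus strand, for the first SP100 start, and chr15:88638938-88638967, plus strand, for ISG20.
SP110, first start: caaagaggAAAAGAAAAGTGAAAttgccta
SP110, second start: ttccgagAAAAGAAAAGTGAAAgttttcgg
SP140L: aatggggAAAAGAAAAGTGAAAgtatttat
SP100, first start: ggggaaaagagAAGTGAAAgtatttaacct
ISG20: aacaaactaGAAACTGAAAcagggtcggga

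Both SP110 windows and the SP140L window shared the run GAAAAGAAAAGTGAAA, the longest that is common to them. That run was chosen after the sequences were seen, and it occurred in 3 of 35116 windows of 250 bases before RefSeq starts (0.00854%, either strand), namely these 3. At the first of 2 SP100 starts in that table, the window held the shorter AAGTGAAA, beginning 64 bases upstream, and the window of the second SP100 start held no match to any of the motifs searched. Only ISG20 held the spaced pair of GAAA, a motif found in 3.02% of all windows. AANNGAAA is common, with 20.3% of windows holding it on either strand, and it overlaps the longer motifs. TTCNNNGAA, the palindrome of the gamma-activated sequence, matched in the second SP110 window alone of those examined for members, against 6.57% of all windows. GENCODE release 29 starts some transcripts further upstream than these RefSeq starts. Its exons, at the first SP110 start partly those of SP140, cover all 250 bases of the windows of the first SP110 start, the first SP100 start and ISG20, 128 bases at the second SP110 start and 9 bases at SP140L. A match describes letters and not a bound site.

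SP110, SP140L and SP100 belong to 1 gene family, whose proteins share a caspase-recruitment-like multimerisation domain and, in their long forms, a SAND domain that binds DNA. They lie close together on chromosome 2 with a further relative, SP140. In GENCODE release 29 (GRCh38), SP110 spans 230167293 to 230225729 on the minus strand. SP140 (230203110 to 230313215) overlaps that span on the plus strand. SP140L (230327184 to 230403732) and SP100 (230415942 to 230544090) follow on the plus strand. The windows before SP140L and SP100 were 89.6% identical over 231 aligned positions, while the first SP110 window was 56.0% identical to SP140L and 56.6% to SP100. The window of ISG20, a gene outside this family, was 52.3% identical to SP100 over 235 positions. It was 54.3% identical to SP140L over 81 positions and 74.1% to the first SP110 window over 27. Values near 56% thus do not set the SP110 window apart from that of ISG20. The AAGTGAAA at the first SP110 start occupies positions 230225726 to 230225733, which are also the match in the window before the SP140 start on the other strand.

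Of the 7 members, 6 fell after IRF1 silencing and 0 rose, whereas 26.4% of all genes tested were called lower and 24.1% higher. The fall exceeded 2-fold on the fitted value for SP110, SP100 and SP140L, or 3 of 7, against 4.43% of all genes, and 0 members rose past 2-fold, against 3.43%. The groups were apart in CPM for those 6 members, each time with the silenced cultures lower, whereas 56.8% of all genes were apart in either direction and 29.5% in the lower one. The median log2 fold change was −0.79 over the members and −0.0024 over all genes tested. In these bulk RNA samples, fewer cells that express a gene and less RNA per cell cannot be told apart.

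**Figure D1:**
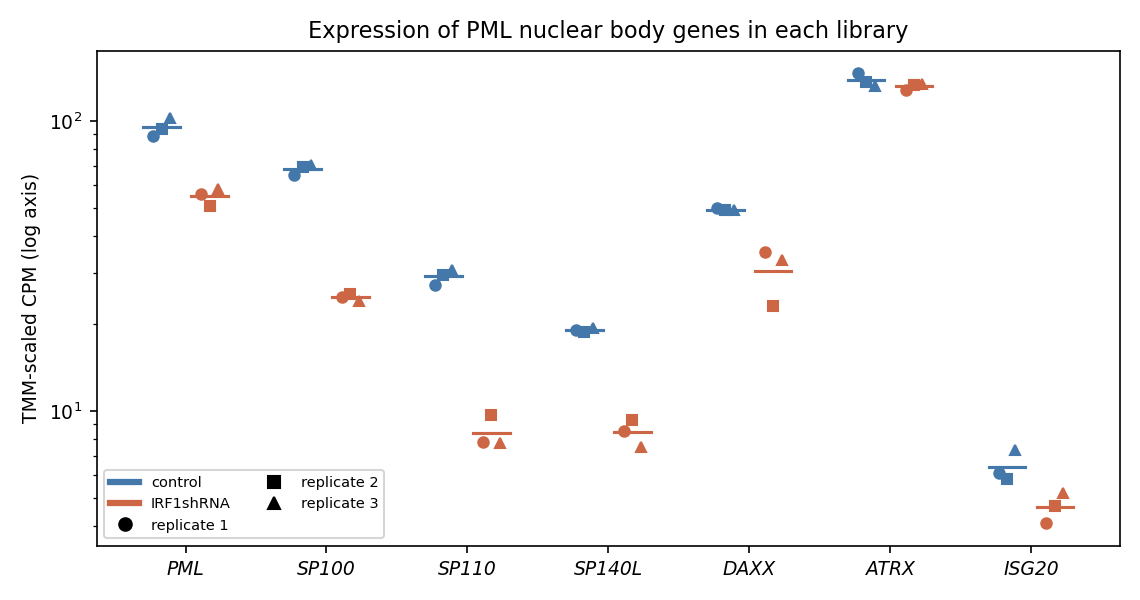
TMM-scaled CPM (log axis) of each member in the 3 control and 3 IRF1shRNA libraries, with symbols for replicates and a line for each group mean. The groups are apart for every member except ATRX, and IRF1shRNA replicate 2 is the lowest library for DAXX, at 23.0 CPM.

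PML, the scaffold without which the bodies do not form, had control levels of 89.0, 93.7 and 103 CPM, replicates 1, 2 and 3 in that order here and throughout, and IRF1shRNA levels of 56.1, 50.9 and 58.1 CPM. Every silenced culture thus lay below every control, and the lowest control stood well above the highest silenced value. Its control mean of 95.1 ± 6.92 CPM compared with 55.0 ± 3.72 CPM after silencing (SD, n = 3 each), 57.8% of control. PML fell by 0.79 on the log2 scale (SE 0.06, adjusted p 3.63e-09 by edgeR). PML lies on chromosome 15 from 73994673 to 74047812 on the plus strand, and none of its exonic bases was shared with another listed gene. The genes with the most similar centred log2 CPM profile over the 6 samples, among 13059 with a mean of at least 1 CPM, were CERCAM (distance 0.0433), HSF1 (0.0647) and PDZD2 (0.0660). Their log2 fold changes were −0.82, −0.78 and −0.79. With 3 samples a group, nearness in such a profile mostly reflects a like fold change and does not show shared regulation.

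SP100, a permanent resident of the bodies that represses incoming viral genomes, was at 65.0, 69.7 and 70.7 CPM in controls and at 24.7, 25.4 and 23.9 CPM in the IRF1shRNA cultures. The 3 values within each group were close together and the groups far apart. Its mean went from 68.4 ± 3.06 to 24.7 ± 0.731 CPM (SD, n = 3 each), which is 36.0% of control. SP100 fell by 1.47 on the log2 scale (SE 0.05, adjusted p 2.23e-13 by edgeR), and ranked 64 of 18851 genes by p. A processed pseudogene, HMGB1P3, shares 544 of its 12618 exonic bases. The genes closest to the SP100 profile were MARVELD1 (distance 0.0639), CRTAP (0.0640) and ADPGK (0.0691). Their log2 fold changes, −1.47, −1.47 and −1.46, were likewise close to that of SP100.

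SP110, an interferon-induced nuclear body protein whose inherited loss causes an immunodeficiency with liver vein disease, fell most among the members. It was at 27.3, 29.5 and 30.6 CPM in controls and at 7.84, 9.66 and 7.77 CPM after silencing. The mean of 29.1 ± 1.73 CPM went to 8.42 ± 1.07 CPM (SD, n = 3 each), 28.9% of control. Its log2 fold change was −1.81 ± 0.08 (SE, adjusted p 1.14e-11 by edgeR), and only 1.10% of genes tested had a value as low or lower. SP110 overlaps SP140 on the opposite strand over 170 exonic bases, 2.48% of SP110. A further antisense gene, AC009950.1 (chromosome 2, 230121370 to 230174223, plus strand), lies over 1262 exonic bases of SP110, and 17.6% of the 50-base words of SP110 occur in another gene on one strand or the other. The strand setting of the counting is not given in the sources used here, so reads of SP110 and of its antisense neighbours may not be told apart.

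SP140L, a little-studied member of the family, was at 19.0, 18.7 and 19.4 CPM in controls and at 8.54, 9.30 and 7.497 CPM in the IRF1shRNA cultures. No silenced culture reached the level of any control. Its mean went from 19.0 ± 0.326 to 8.44 ± 0.903 CPM (SD, n = 3 each), leaving 44.4% of control. SP140L fell by 1.18 on the log2 scale (SE 0.08, adjusted p 1.09e-09 by edgeR). Against a threshold of 2-fold rather than of no change, edgeR's glmTreat left SP100 and SP110 called and gave SP140L an adjusted p of 0.117.

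SP140L is a near copy of SP140 in part, which bears on how its reads can be assigned. Of the 50-base words in its GENCODE transcripts, 12.6% also occur in transcripts of another gene on the same strand, mostly SP140 (638 of 5910 words). SP140, a relative known mainly from lymphocytes, was itself scarce, at 0.212 to 0.316 CPM in controls and at 0.0721 to 0.389 CPM after silencing. SP140 was not called (log2 fold change −0.10 ± 0.41, SE, adjusted p 0.870 by edgeR), and its lowest value rested on 4 reads. SP140 was chosen for its sequence likeness, after its values were seen.

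Few other tested genes lay inside the cluster on chromosome 2 or within 100 kb of it, and they were chosen after their values were seen. SLC16A14, outside the cluster, was at 13.9 to 14.7 CPM in controls and 13.4 to 14.2 CPM after silencing and was not called (−0.03 ± 0.07, adjusted p 0.697 by edgeR). TPM3P8, a pseudogene, was not called either (−0.42 ± 0.22, adjusted p 0.123 by edgeR). RN7SL834P, a 7SL RNA pseudogene of few reads, lies within the span of SP100. It fell from 0.237 to 0.262 CPM in controls to at most 0.0794 CPM (log2 fold change −1.74 ± 0.40, adjusted p 0.00156 by edgeR). Whether its reads come from SP100 transcripts was not tested.

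ISG20, an interferon-induced RNA exonuclease found in the bodies and in nucleoli, was the scarcest member. It was at 6.12, 5.84 and 7.34 CPM in controls and at 4.10, 4.68 and 5.20 CPM in the IRF1shRNA cultures. The groups came close to each other without overlapping. The mean went from 6.43 ± 0.798 to 4.66 ± 0.549 CPM (SD, n = 3 each), 72.5% of control, and ISG20 fell by 0.46 on the log2 scale (SE 0.11, adjusted p 0.0014 by edgeR). ISG20 spans 88636153 to 88656483 on chromosome 15, plus strand.

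DAXX and ATRX work together as the chaperone and the chromatin remodeler that place a replacement form of histone H3 at telomeres and silent repeats, and both dock on PML bodies. Their transcripts parted after IRF1 silencing. DAXX was at 50.02, 49.3 and 49.3 CPM in controls and at 35.4, 23.0 and 33.1 CPM in the IRF1shRNA cultures. The controls were nearly equal, while the silenced cultures were lower and more scattered, with replicate 2 the lowest. DAXX went from 49.5 ± 0.429 to 30.5 ± 6.57 CPM (SD, n = 3 each), leaving 61.6% of control. DAXX fell by 0.69 on the log2 scale (SE 0.10, adjusted p 1.69e-05 by edgeR). Leaving out IRF1shRNA replicate 2 gave −0.53 ± 0.05 on that scale (SE, adjusted p 9.15e-07 by edgeR).

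ATRX was at 146, 136 and 132 CPM in controls and at 128, 133 and 134 CPM in the IRF1shRNA cultures. The groups overlapped. Its mean was 138 ± 7.11 CPM in controls and 132 ± 2.83 CPM after silencing (SD, n = 3 each). Its log2 fold change of −0.07 ± 0.05 (SE) was not called (adjusted p 0.211 by edgeR). The 95% interval of that log2 fold change ran from −0.17 to 0.02, and the estimates of the other 6 members lay outside it. ATRX spans 77504878 to 77786233 on chromosome X, minus strand, and 0 of its 19790 words of 50 bases occurred in another gene.

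**Figure D2:**
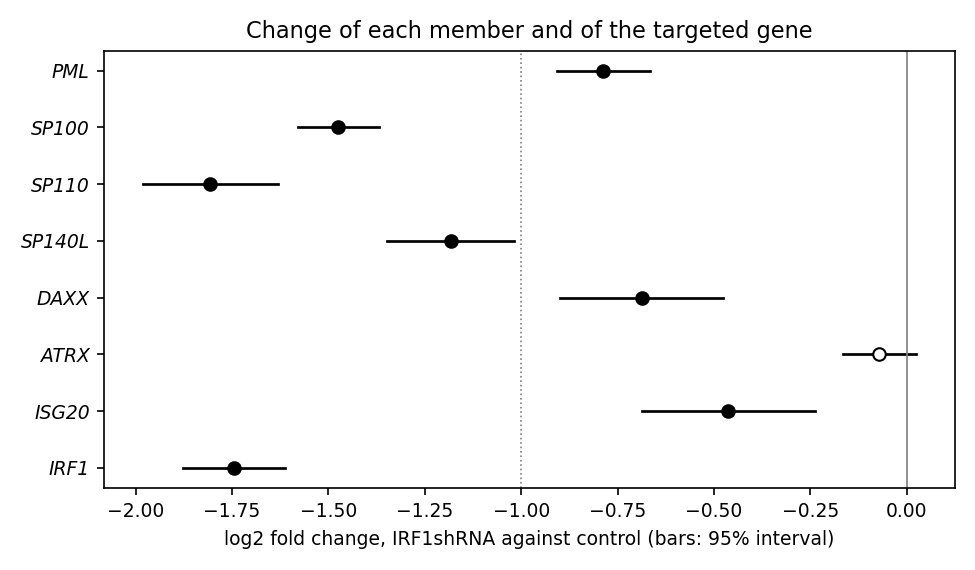
Log2 fold change of IRF1shRNA against control for the 7 members and IRF1, with 95% intervals as bars, filled points where the adjusted p was under 0.05 and a dotted line at a 2-fold decrease. SP110, at −1.81, lies lowest beside IRF1 at −1.74, and ATRX is the open point next to 0.

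In order of the log2 fold change, the members ran from SP110 through SP100, SP140L, PML, DAXX and ISG20 to ATRX. The 95% intervals of PML (−0.91 to −0.67) and DAXX (−0.90 to −0.48) overlapped, as did those of DAXX and ISG20 (−0.69 to −0.24). The interval of SP110 (−1.98 to −1.63) ended below that of SP100 (−1.58 to −1.37), and the latter lay just below that of SP140L (−1.35 to −1.02). Differences between members in log2 fold change were tested only for the 3 pairs that follow.

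Ratios of the counts of 2 members within a library do not depend on scaling. The DAXX to ATRX ratio was 0.342, 0.362 and 0.372 in controls and 0.276, 0.174 and 0.247 in the IRF1shRNA cultures. Its mean log2 value changed by −0.65 after silencing (log2 ratio −1.48 ± 0.0614 in controls and −2.13 ± 0.349 in IRF1shRNA, SD, n = 3 each). The SP100 to PML ratio was 0.730, 0.743 and 0.689 in controls and 0.441, 0.499 and 0.412 after silencing, so SP100 fell further than its scaffold in all 3 silenced cultures. The SP110 to SP140L ratio was 1.44, 1.58 and 1.58 in controls and 0.918, 1.04 and 1.04 after silencing, so that the neighbours came to near equal counts. The log2 change was −0.68 for SP100 to PML and −0.62 for SP110 to SP140L. For each of the 3 ratios the groups did not overlap, and the 2-sided exact permutation test gave p = 0.1, also after adjustment, which is the smallest value that 3 against 3 can give.

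**Figure D3:**
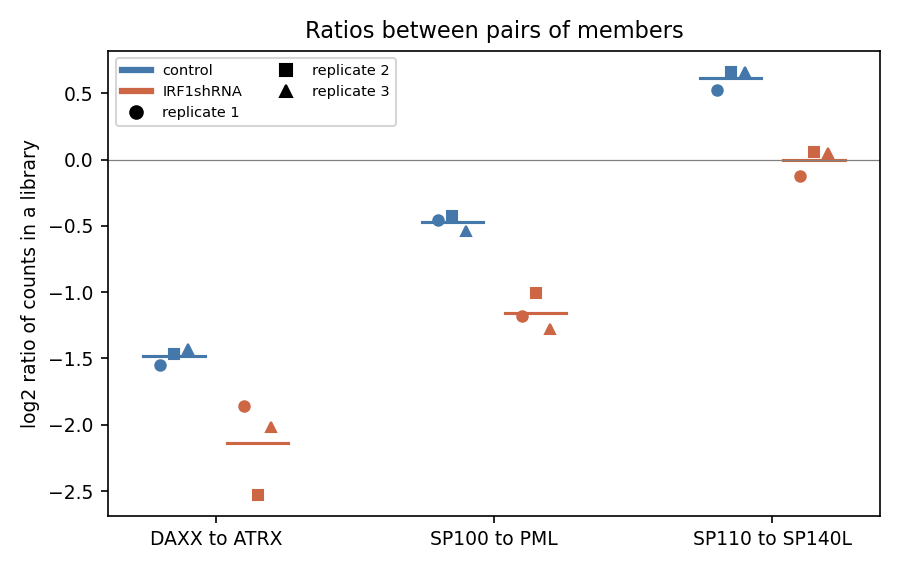
Log2 ratio of the counts of paired members in each library, with symbols for replicates and lines for group means. All 3 ratios are lower in the IRF1shRNA libraries, with DAXX to ATRX in replicate 2 lowest, at a ratio of 0.174.

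Levels can be set side by side between genes only per length, here as CPM per kilobase of the union of GENCODE exons, which makes a gene with many isoforms look scarcer. In controls DAXX had the highest level on that scale, at 16.1 ± 0.139, followed by PML (7.51 ± 0.546), ATRX (7.18 ± 0.369), SP100 (5.42 ± 0.243), SP110 (4.25 ± 0.252), SP140L (3.37 ± 0.0579) and ISG20 (0.873 ± 0.108) (CPM per kilobase, SD, n = 3). The ranges of PML and ATRX overlapped in controls. After silencing the order was DAXX (9.89 ± 2.13), ATRX (6.83 ± 0.148), PML (4.35 ± 0.294), SP100 (1.96 ± 0.0579), SP140L (1.495 ± 0.160), SP110 (1.23 ± 0.156) and ISG20 (0.633 ± 0.0746). ATRX thus moved above PML and SP140L above SP110, although the ranges of SP140L (1.33 to 1.65) and SP110 (1.13 to 1.41) overlapped.

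DAXX lies in the major histocompatibility complex region of chromosome 6, from 33318558 to 33323016 on the minus strand. IRF1shRNA replicate 2 was the lowest silenced library for some of its neighbours and the highest for others. Its DAXX level was 0.673 of the mean of the other silenced replicates. Among the 11 tested genes within 100 kb, chosen after values were seen, that same ratio ran from 0.534 for TAPBP, the peptide-loading chaperone tapasin, to 1.76 for RPS18. It was 0.590 for ZBTB22, the nearest neighbour of DAXX, and 0.673 for PFDN6. TAPBP was also uneven in controls, at 32.8, 17.6 and 17.8 CPM. Of these 11 genes, 3 were called lower and 2 higher, beside 26.4% and 24.1% of all genes, with a median log2 fold change of −0.12 on the scale where DAXX was at −0.69. How the low DAXX value of IRF1shRNA replicate 2 bears on the change of DAXX was not tested beyond leaving that library out. Of the 50-base words of DAXX, 11.8% also lie in AL662820.1, a GENCODE locus on the same strand (33321386 to 33329286). That locus overlaps DAXX over 441 exonic bases and is not among the listed genes.

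**Figure D4:**
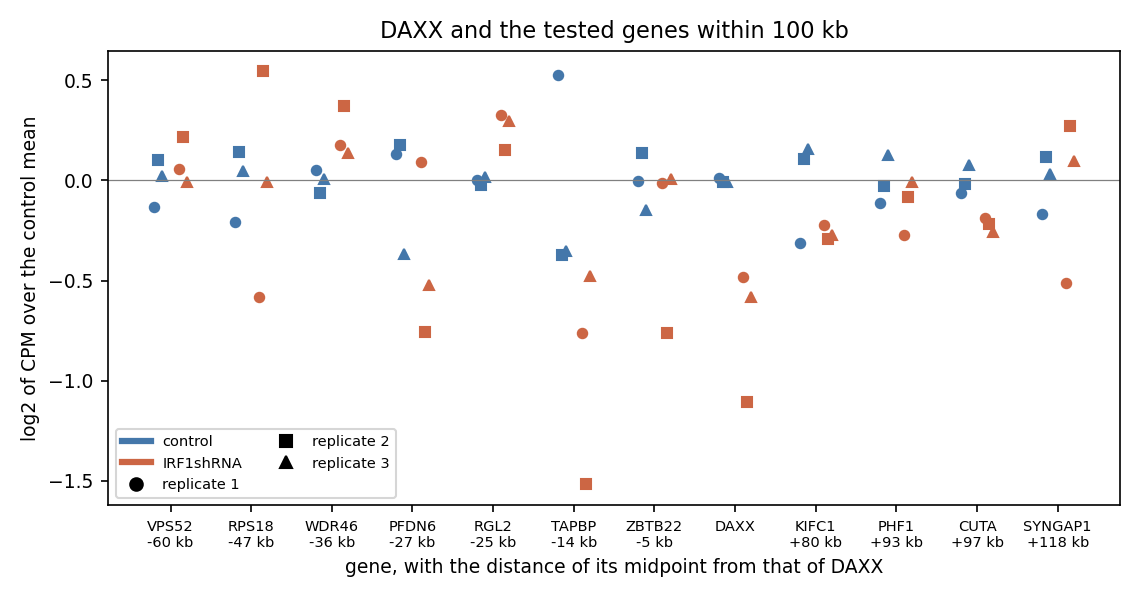
Log2 of the CPM over the control mean for DAXX and the 11 tested genes within 100 kb, ordered along the chromosome, with symbols for replicates and colours for groups. All 3 IRF1shRNA libraries lie below the controls for DAXX, and replicate 2 is the lowest silenced library for DAXX, PFDN6, RGL2, TAPBP, ZBTB22 and KIFC1.

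Genes of the SUMO pathway, which modifies PML, SP100 and DAXX, moved in both directions. Of the 21 genes, 7 fell, 5 rose and 9 were not called, with a median log2 fold change of −0.08, and the called share was 57.1% against 50.5% of all genes. None passed 2-fold. SUMO2, one of the conjugated modifiers, fell by 0.28 on the log2 scale, whereas SUMO3 (−0.07) was not called. The smallest adjusted p-values belonged to SENP5, SENP2 and PIAS4. SENP5, a SUMO protease, went from 161 ± 4.60 to 107 ± 1.99 CPM (log2 fold change −0.59 ± 0.04, SE, adjusted p 2.48e-09 by edgeR). SENP2, another SUMO protease, rose from 98.4 ± 2.29 to 140 ± 6.25 CPM (0.51 ± 0.04, adjusted p 3.98e-08 by edgeR). PIAS4, a SUMO ligase, went from 39.1 ± 2.33 to 25.7 ± 1.803 CPM (−0.60 ± 0.06, adjusted p 3.74e-07 by edgeR). RNF4, a ubiquitin ligase that marks SUMO-modified PML for degradation, fell by 0.33 on the log2 scale. RNF111, another ubiquitin ligase in the list, rose by 0.18 (adjusted p 0.00256 by edgeR). SUMO2, SUMO3, RNF4 and RNF111 were chosen after their values were seen.

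Other partners that dock on the bodies or act with DAXX and ATRX, with RARA added as the fusion partner of PML, formed a list of 26 genes. Of these, 12 fell, 5 rose and 9 were not called (median log2 fold change −0.10). The called share was 65.4%, beside 50.5% of all genes. Those called lower made up 46.15% of the list, against 26.4% of all genes, and those called higher 19.23%, against 24.1%. Of the 26 genes, 2 fell past 2-fold, as did 4.43% of all genes. RARA, the retinoic acid receptor gene that is fused to PML in acute promyelocytic leukaemia, went from 28.9 ± 2.93 to 11.5 ± 1.31 CPM (log2 fold change −1.32 ± 0.09, SE, adjusted p 9.99e-10 by edgeR). DEK, a chromatin protein that cooperates with DAXX, went from 465 ± 25.4 to 218 ± 4.79 CPM (−1.09 ± 0.05, adjusted p 4.52e-12 by edgeR). BLM, the helicase of Bloom syndrome that resides in the bodies, went from 22.2 ± 1.47 to 14.8 ± 0.339 CPM (−0.58 ± 0.07, adjusted p 1.10e-06 by edgeR). The genes for the replacement histone, H3F3A (−0.27) and H3F3B (−0.23), both fell, as did HIRA (−0.25) and CABIN1 (−0.33) of the alternative chaperone complex, while UBN1 of that complex rose by 0.14. HIRA had an adjusted p of 0.0283 by edgeR. Its silenced cultures were at 8.27, 6.38 and 8.32 CPM, with replicate 2 the lowest, against 8.84 to 9.49 CPM in controls. ASF1A, also in the list, was not called (−0.10, adjusted p 0.115 by edgeR). MORC3, an ATPase recruited to the bodies, rose by 0.38 on the log2 scale. H3F3A, H3F3B, HIRA, CABIN1, UBN1, ASF1A and MORC3 were chosen after their values were seen.

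Exonucleases related to ISG20 moved in both directions. Of 9 genes, 8 were tested, and 4 rose, 2 fell and 2 were not called (median log2 fold change 0.13). The 2 that fell, ERI3 and REXO4, made up 25% of the list, near the 26.4% of all genes called lower, and the 4 that rose made up 50%, against 24.1% of all genes. AEN, an exonuclease induced by p53, rose from 35.2 ± 0.712 to 51.1 ± 2.02 CPM (0.54 ± 0.05, SE, adjusted p 6.07e-08 by edgeR). ISG20L2, a paralog of ISG20 in ribosome maturation, rose from 91.5 ± 1.198 to 126 ± 6.15 CPM (0.46 ± 0.04, adjusted p 1.30e-07 by edgeR). ERI3 went from 98.6 ± 3.39 to 72.1 ± 1.51 CPM (−0.45 ± 0.04, adjusted p 1.08e-07 by edgeR). TREX1, which degrades DNA in the cytosol, is listed at 0 in all 6 libraries, and all 1515 of its exonic bases are shared with ATRIP on the same strand.

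**Figure D5:**
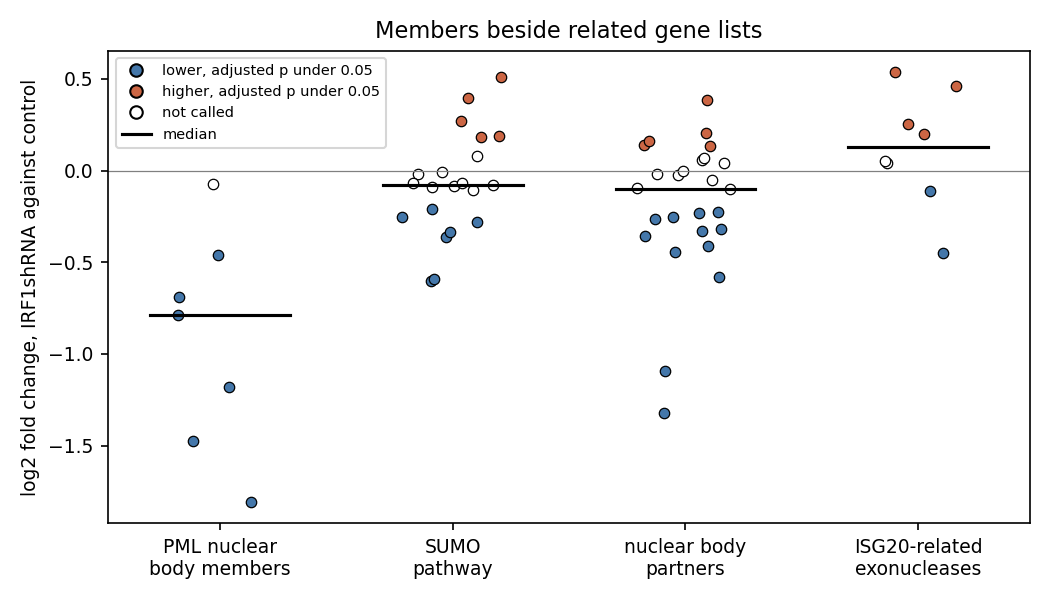
Log2 fold change of each tested gene for the members and the 3 related lists, with filled points for an adjusted p under 0.05 and a bar at each median. The members sit at or below −0.07 with a median of −0.79, while the other lists spread to both sides of 0.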

How the data were processed

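Total RNA was sequenced after TruSeq Stranded mRNA library preparation. The table that the authors deposited holds whole-number counts for each symbol, not normalized, and the submitters' processing notes name CASAVA 1.8.2, STAR 2.7.9a, featureCounts, DESeq2 1.24.0 and GRCh38.p7. Between 72.1% and 75.2% of values from 2 to 11 counts were even, so mates of a pair may have been counted separately. Groups and replicate numbers came from the titles. The counting settings for strand, pairs and reads with several matches are not given in the sources used here. Counts were filtered with filterByExpr (minimum count 10), scaled by TMM and fitted over the whole table with group as the factor (edgeR 4.0.16, R 4.3.3). Intervals came from the SE and the fit's degrees of freedom, and SE is the log2 fold change over the square root of F. The fitting was tested on simulated data. Members, lists and the naming rule (all members, IRF1, list genes called over 2-fold, the 3 smallest p per list, and the 3 nearest profiles to PML and SP100) were chosen with earlier results of these data known. Alternatives were DESeq2 1.42.0, other scalings and filters, halved counts, glmTreat against 2-fold, a replicate block and leaving out each sample. Exon positions and 50-base words came from GENCODE release 29 (GRCh38), and alignments from Biopython 1.88.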

Additional observations from a re-analysis of the deposited data

How the results depend on the processing

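All 7 members kept their direction in all 15 alternatives, and 6 stayed called except under glmTreat against 2-fold, where PML (−0.79), SP140L (−1.18), DAXX (−0.69) and ISG20 (−0.46) were no longer called, with adjusted p-values of 1, 0.117, 1 and 1 by edgeR. ATRX was not called in any, with log2 fold changes from −0.098 to −0.021. The glmTreat test called 127 genes higher and 377 lower, and in the SUMO list 0 higher and 0 lower, in the partner list 0 and 1, and in the exonuclease list 0 and 0. In that last list, 1 gene was called lower under upper quartile scaling, library size only, no filter, at least 1 CPM in 3 samples and DESeq2, and 1 to 2 across the fits that left out a replicate, with 1 without control replicates 2 or 3 or IRF1shRNA replicates 1 or 2. REXO4, 1 of the genes called lower there, had an adjusted p of 0.0316 by edgeR. The cause was not tested. Across those fits the log2 fold changes ran from −0.84 to −0.73 for PML, −1.51 to −1.45 for SP100, −1.90 to −1.75 for SP110, −1.24 to −1.10 for SP140L, −0.80 to −0.53 for DAXX and −0.56 to −0.35 for ISG20. The median of all genes lay at 0.0488 with scaling by library size only, which called 5267 genes higher and 4309 lower, against 4548 and 4971. With the replicate block, log2 fold changes were −0.79 for PML, −1.47 for SP100, −1.80 for SP110, −1.18 for SP140L, −0.71 for DAXX, −0.07 for ATRX, −0.47 for ISG20 and −1.74 for IRF1, and no call changed. Deviations of same-numbered samples correlated at 0.0137, 0.025 and −0.0072. Correlations over all genes with 3 samples a group cannot show whether same-numbered samples were grown or processed together. The exact tests of the ratios cannot pass the threshold with 3 samples a group.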
